A study of Mus musculus with 17 samples.

Results

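Beta-catenin, the scaffolds that destroy it, the transcription factors it works with and the genes that feed back on it were followed by RNA-seq in the bile duct of mice, in work on extrahepatic cholangiocarcinoma (a tumour of the larger bile ducts). The set holds 10 genes of the 43346 in the authors' count table, found there by gene name, after earlier results of these data were known, and all 10 passed the filter on low counts. They are Ctnnb1 (beta-catenin), Apc, Axin1 and Axin2 (scaffolds of the destruction complex), Rnf43, Znrf3 and Nkd1 (inhibitors of WNT signalling) and Tcf7, Lef1 and Tcf7l2 (DNA-binding partners of beta-catenin). There were 17 samples, all labelled as bile duct tissue of the mouse. The labels give no strain, genotype, treatment, time or age, and no control group, so no conditions could be compared.

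In the absence of a WNT signal, a complex built on APC and AXIN phosphorylates beta-catenin and marks it for destruction. A WNT ligand disables the complex, and beta-catenin then enters the nucleus and activates genes together with TCF and LEF factors. AXIN2, NKD1, RNF43 and ZNRF3 are themselves induced in many tissues and dampen the signal, so their transcripts are widely used as a read-out of the pathway. Beta-catenin also binds E-cadherin at the junctions of epithelial cells, such as the cholangiocytes that line bile ducts.

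The 17 libraries held 16400556 to 24152314 counts, with a median of 17886041. Each column of the table is named by 1 of 6 codes and a running number, such as R62848_1. A code covers 3 libraries, except R63494, which covers 2. The meaning of a code is not stated in the labels: it may mark an animal, a batch or a condition, and these cannot be told apart. Nothing in the labels ties a sample to its own animal, and p-values therefore measure only the spread between these libraries. Cholangiocyte markers were present in every library, with all 10 markers kept and a summed level of 6501 to 9178 CPM (the counts relative to library size, scaled by the TMM factor). Of the 6 hepatocyte markers, Cps1 and Cyp1a2 had a median of 0 CPM and Apoa1 had no counts in some libraries. The other hepatocyte markers had counts in every library: Glul at 157 to 261 CPM, Cyp2e1 at 3.98 to 31.8 CPM and Alb at 0.912 to 31.3 CPM. The 3 R62850 libraries stood apart in 6 pancreatic acinar enzyme genes, which summed to 4229.7, 16625 and 94998 CPM there and to 39.7 to 154 CPM elsewhere. In bulk tissue, fewer cells of a type and less RNA per cell cannot be told apart.

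Of the promoters 2 are printed here because their genes behave differently in the libraries: Axin2 was the member with the smallest p between codes, and Tcf7l2 was among the steadier ones. Each run gives the 250 bases before the RefSeq start, which for both genes is also the gene start in the deposited table, on the plus strand of GRCm38.p6 (mm10).
Axin2, chr11:108920099-108920348: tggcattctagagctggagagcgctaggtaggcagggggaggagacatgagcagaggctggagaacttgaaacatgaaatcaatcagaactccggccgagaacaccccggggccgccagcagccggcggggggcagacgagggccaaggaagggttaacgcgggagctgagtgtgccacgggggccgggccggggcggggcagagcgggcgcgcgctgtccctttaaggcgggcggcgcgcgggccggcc
Tcf7l2, chr19:55741560-55741809: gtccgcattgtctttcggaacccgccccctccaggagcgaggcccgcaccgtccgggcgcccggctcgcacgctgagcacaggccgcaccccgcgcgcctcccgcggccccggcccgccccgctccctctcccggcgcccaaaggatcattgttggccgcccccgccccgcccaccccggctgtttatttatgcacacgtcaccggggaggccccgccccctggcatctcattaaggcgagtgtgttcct
Capitals were reserved for the core that TCF and LEF factors recognise, searched as CTTTGAT or CTTTGAA on both strands, and neither run holds it. RefSeq promoter windows were found for 7 of the 10 members (14 windows), and 0 of the 14 held either core in the 250 bases before the start. Among all 32817 windows of the same length 7.48% held at least 1. The absence says only that these letters are not in these windows. G and C made up 69.2% of the Axin2 run and 72.8% of the Tcf7l2 run.

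On the scale adjusted for gene length (RPKM, the CPM per kilobase of gene length), beta-catenin was far more abundant than any other member. The median RPKM was 275 for Ctnnb1, 16.7 for Axin1, 8.45 for Rnf43, 5.80 for Tcf7, 5.28 for Apc, 3.67 for Tcf7l2, 3.38 for Znrf3, 3.26 for Axin2, 0.949 for Nkd1 and 0.225 for Lef1. Ctnnb1 exceeded Axin1 in 17 of 17 libraries by 12.2-fold to 20.7-fold, and Axin1 exceeded Rnf43 in 17 of 17. Neither of these pairs of ranges overlapped. The middle of the order was not resolved: Tcf7 exceeded Apc in 11 of 17 libraries, Tcf7l2 exceeded Znrf3 in 9 and Znrf3 exceeded Axin2 in 9. Axin2 lay above Nkd1 and Nkd1 above Lef1 in every library. Of the 19412 genes kept, 154 had a higher median RPKM than Ctnnb1, whereas the median of Lef1 exceeded that of 8.49% of them.

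**Figure D1:**
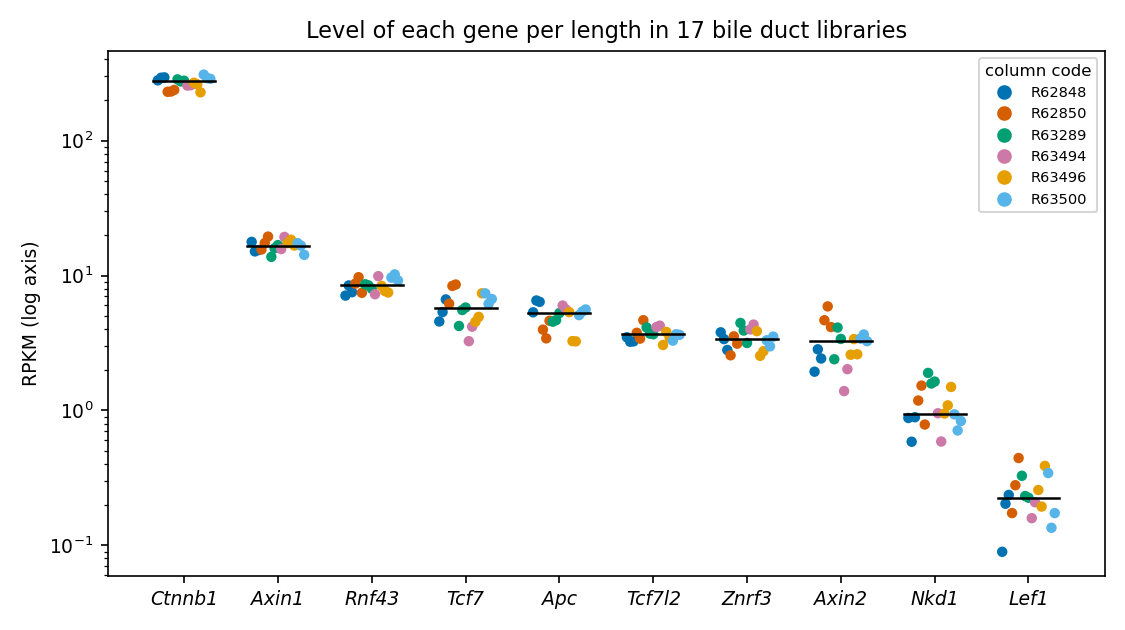
RPKM of the 10 genes (log axis) in the 17 bile duct libraries, ordered by median. Each point is 1 library, coloured by its column code, and the bar is the median; Ctnnb1, at a median of 275 RPKM, lies above all others, and Lef1, at 0.225 RPKM, lies lowest.

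Several members varied between codes more than within them. An edgeR quasi-likelihood test of the code term over all 19412 genes called Axin2, Nkd1, Tcf7, Ctnnb1 and Apc, which is 5 of 10 members. This is close to the share among all genes, of which 42.2% were called, so the count says nothing particular about the members. Axin1, Rnf43, Znrf3, Lef1 and Tcf7l2 did not pass. Between the code with the highest mean and the code with the lowest, Axin2 spanned 2.87-fold, Nkd1 2.23-fold, Tcf7 2.06-fold, Apc 1.58-fold and Ctnnb1 1.27-fold. The median of this span over all genes kept was 1.64-fold.

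**Figure D2:**
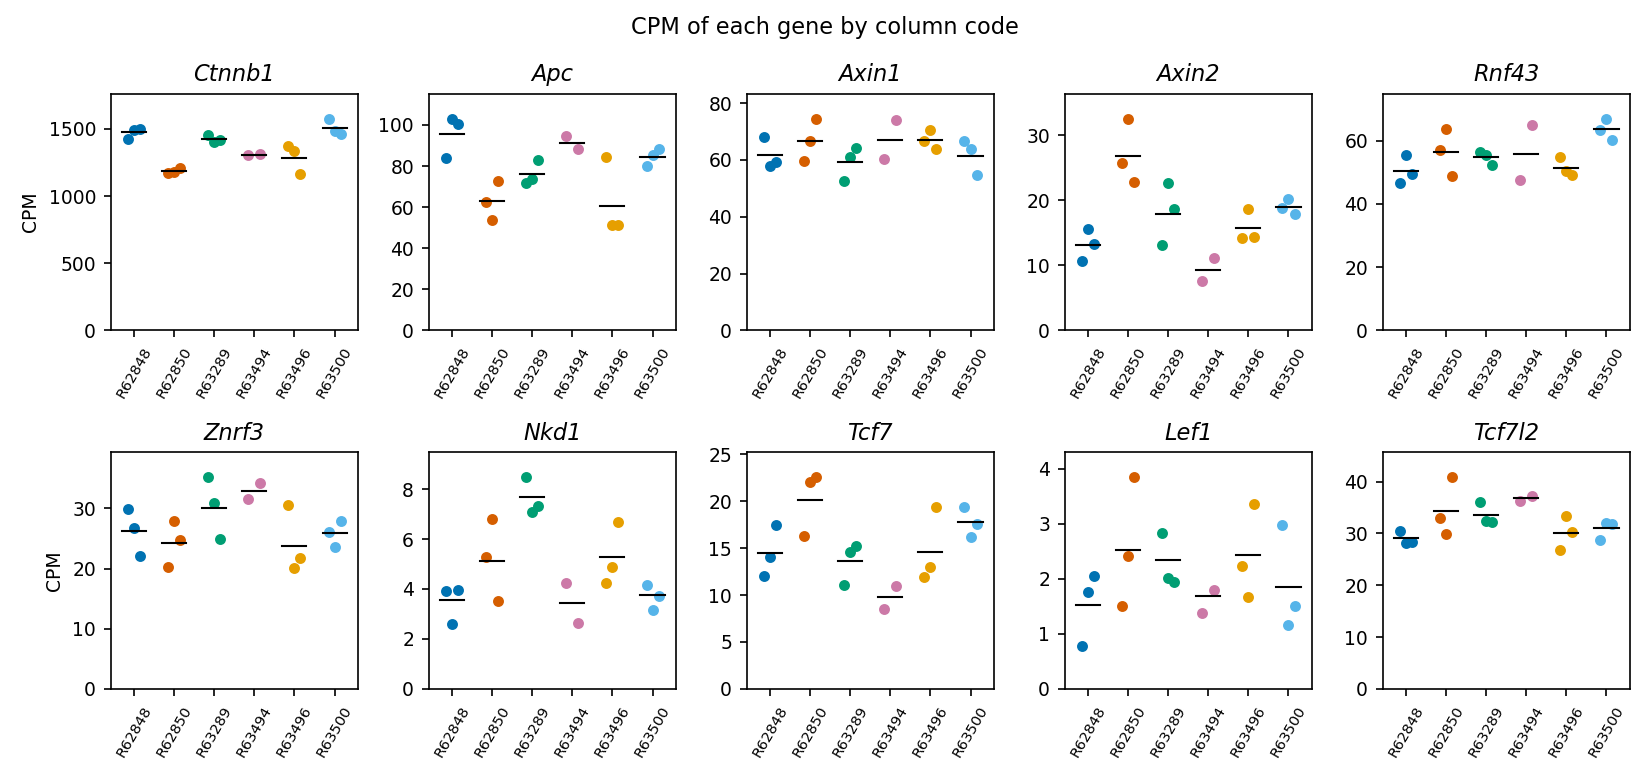
CPM of each of the 10 genes by column code, 1 panel per gene with its own axis from 0. Points are libraries (3 per code, 2 for R63494) and bars are geometric means; Axin2 is highest in R62850 and Nkd1 in R63289, and Tcf7 is lowest in R63494.

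Ctnnb1 (ENSMUSG00000006932, chromosome 9, from 120929216 to 120960507) encodes beta-catenin, the protein on which the pathway turns. Its level ranged from 1164 CPM in R63496_3 to 1575 CPM in R63500_1, with a median of 1402 CPM. The 3 R62850 libraries were low, at 1174.5, 1179.7 and 1212 CPM, and the R63500 libraries were high, at 1575, 1484 and 1465 CPM. R63496_3 lay below the R62850 libraries, so no code stood wholly apart. The spread was small: the SD of log2 CPM was 0.14, and 12.5% of 48 genes of like level had a smaller one. Codes still differed (edgeR quasi-likelihood test, adjusted p = 0.0121), but not without R62850 (adjusted p = 0.221).

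Beta-catenin's partners at the junction were described by a list of 6 genes, of which 5 were called between codes, against 42.2% of all genes. Cdh1, which encodes E-cadherin, ranged from 671 to 1044 CPM, and was lowest in R62850 (671 to 719 CPM), a code in which Ctnnb1 was also low. Cdh2, which encodes N-cadherin, varied most of the list, from 0.671 CPM in R63496_2 to 10.2 CPM in R63500_2. A fibroblast and matrix list of 9 genes was highest in R62848 and R63500, at 9515 to 11600 CPM summed, against 2709 to 6461 CPM elsewhere, and all 9 genes were called between codes. Ctnnb1 was at 1428 to 1502 CPM in R62848 and at 1465 to 1575 CPM in R63500. Within codes the relation did not go the same way: the r of Ctnnb1 with the fibroblast and matrix sum was -0.53 (rho -0.31), and 0.07 without the 2 farthest libraries. Ctnnb1 also had a negative r with the B and plasma cell sum (-0.64, rho -0.46), the macrophage sum (-0.58, rho -0.42) and the endothelial sum (-0.57, rho -0.41). Without the 2 farthest libraries these were -0.54, -0.54 and -0.38. The part of these cells in its level was not tested.

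Apc (ENSMUSG00000005871, chromosome 18, from 34220924 to 34322189) encodes the large scaffold whose loss stabilises beta-catenin in intestinal tumours. Its median was 83.1 CPM. It was lowest in R63496_3 and R63496_2, at 51.2 and 51.4 CPM, followed by R62850_2 at 53.9 CPM, and highest in R62848_2 at 103 CPM. Within the code R63496 the libraries disagreed, since R63496_1 stood at 84.4 CPM. The SD of log2 CPM was 0.32, larger than that of 85.7% of 2451 genes of like level. The test between codes called Apc (edgeR, adjusted p = 0.0123), but not without the code R62848 (adjusted p = 0.0589).

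The level of Apc moved with a feature of the whole library. Apc has a length of 15753 bases in the table, and 739 other protein-coding genes of at least 10000 bases shifted together between libraries. Their median departure from each gene's mean was -0.27 log2 units in R63496_3, -0.25 in R62850_1, -0.23 in R63496_2 and -0.22 in R62850_2, and reached 0.25 in R62848_2. Genes under 2000 bases mostly went the other way, with 0.14 in R63496_3 and -0.19 in R62848_2, except in R62848_1 (long 0.04, short 0.0019) and R63494_2 (long 0.08, short 0.08), where both had the same sign. After code means were subtracted, Apc followed this long-transcript level with a Pearson r of 0.93 and a Spearman rho of 0.90 over the 17 libraries (r = 0.88 without the 2 farthest). Ctnnb1, of 5099 bases, had an r of 0.58 (rho 0.40), which fell to 0.37 without the 2 farthest libraries, and Axin2 an r of 0.03 (rho 0.09). The remaining members ran from -0.49 for Nkd1 to 0.26 for Lef1. Tcf7l2, the longest member after Apc at 8739 bases, had an r of -0.28. With the long-transcript level as a covariate, a check chosen after seeing the data, neither Apc (adjusted p = 0.604) nor Ctnnb1 (adjusted p = 0.201) was called between codes by edgeR. Axin2 (adjusted p = 0.00468), Nkd1 (adjusted p = 0.0326) and Tcf7 (adjusted p = 0.0360) passed that edgeR test, as did 5594 genes in all. Whether RNA quality, library preparation or biology set the long-transcript level was not tested.

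**Figure D3:**
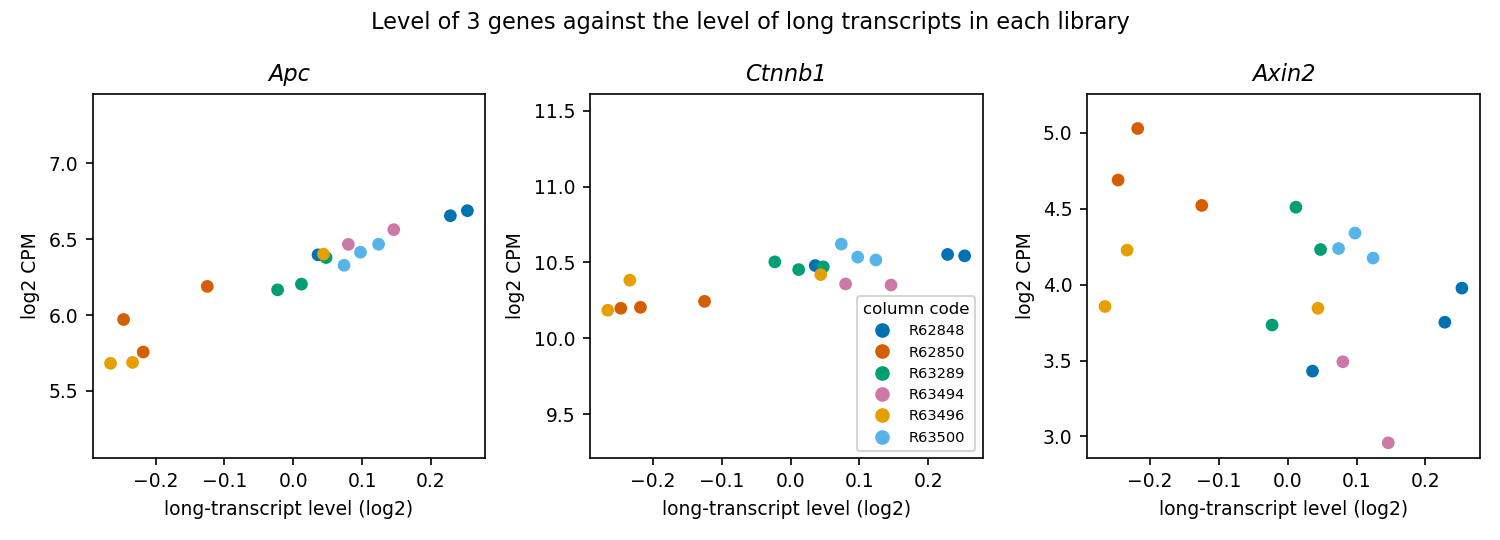
Log2 CPM of Apc, Ctnnb1 and Axin2 against the long-transcript level of each library, which is the median log2 departure of 739 genes of at least 10000 bases. Points are the 17 libraries coloured by code and the vertical axes span equal log2 ranges; Apc rises along the axis (within-code r of 0.93), whereas Axin2 does not (within-code r of 0.03) and its highest libraries, those of R62850, lie at low long-transcript levels.

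Axin1 (ENSMUSG00000024182, chromosome 17, from 26138688 to 26195811) encodes the scaffold that limits the amount of destruction complex. It was steady, between 52.7 CPM in R63289_1 and 74.5 CPM in R62850_3 with a median of 63.9 CPM. All codes overlapped (edgeR, adjusted p = 0.555). Its SD of log2 CPM was 0.14 over all libraries and 0.14 within codes.

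Axin2 (ENSMUSG00000000142, chromosome 11, from 108920349 to 108950783) encodes the inducible relative of AXIN1 and is the standard target by which WNT signalling is followed. Its level was 25.7, 32.5 and 22.9 CPM in the code R62850, and 7.66 and 11.1 CPM in R63494. It was at 10.7, 15.6 and 13.4 CPM in R62848, and at 13.2, 22.7 and 18.7 CPM in R63289. In R63496 it was at 14.3, 18.6 and 14.4 CPM, and in R63500 at 18.8, 20.1 and 17.96 CPM. All 3 R62850 libraries lay above the other 14, with a narrow gap between R62850_3 and R63289_2, and such a code wholly above the rest occurred in 12.6% of all genes. R63494_1 was the lowest, and R63494_2 overlapped R62848.

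Codes differed in Axin2 with an adjusted p of 0.000246 in edgeR's quasi-likelihood test. Of its variance in log2 CPM 79.7% lay between codes, against a median of 58.6% over all genes and 85.4% for Ctnnb1. The call held without any single library (adjusted p from 0.000113 to 0.00201) and without any single code (up to 0.0118, without R62850). R62850 is also the code with acinar enzyme RNA, and within it the library with the most, R62850_3, had the least Axin2. The 5 libraries of R62850 and R63494 were those with Y-linked counts (158 to 208 CPM summed over 4 genes, and 0 in the other 12). Xist stood at 0.645 to 5.84 CPM in these 5 and at 660 to 1476 CPM in the other 12. The 5 held both the highest and the lowest Axin2 levels. No code held libraries of both kinds, so a difference between the sexes cannot be told apart from one between codes. Both R62850 and R63494 held Y-linked counts, and their Axin2 levels did not overlap (22.9 to 32.5 against 7.66 to 11.1 CPM). The parts of acinar tissue and of sex in the Axin2 level were not tested. Per length, Axin1 exceeded Axin2 in every library, by 2.95-fold in R62850_2 to 11.3-fold in R63494_1 (median 5.32-fold).

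The WNT receptor is removed from the cell surface by a pair of related ubiquitin ligases, RNF43 and ZNRF3. Rnf43 (ENSMUSG00000034177, chromosome 11, from 87662722 to 87735539) had a median of 55.4 CPM, from 46.6 CPM in R62848_1 to 66.9 CPM in R63500_2. The R63500 libraries were high, at 63.4, 66.9 and 60.3 CPM, but R63494_2 reached 64.9 CPM and R62850_2 63.8 CPM, and codes did not differ beyond the spread within them (edgeR, adjusted p = 0.154). Znrf3 (ENSMUSG00000041961, chromosome 11, from 5276324 to 5444847) lay between 20.1 CPM in R63496_2 and 35.2 CPM in R63289_1, with a median of 26.7 CPM (edgeR, adjusted p = 0.177). Without R63496_1, its adjusted p was 0.0350. Per length, Rnf43 exceeded Znrf3 in 17 of 17 libraries, by 1.82-fold to 3.41-fold.

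Nkd1 (ENSMUSG00000031661, chromosome 8, from 88521344 to 88594887) encodes an inhibitor that binds Dishevelled, the relay between receptor and destruction complex. It had 49 to 170 counts in a library, so its counting error was larger than that of the genes above. All 3 R63289 libraries, at 8.47, 7.06 and 7.30 CPM, lay above the other 14, whose highest were R62850_2 at 6.82 CPM and R63496_3 at 6.66 CPM. The lowest were R62848_2 and R63494_2, both at 2.62 CPM. As given for Axin2, a code wholly above the rest occurred in 12.6% of all genes. Codes differed in Nkd1 (edgeR, adjusted p = 0.00999), but not without R63289 (adjusted p = 0.231). Within codes Nkd1 moved with the macrophage sum (r = 0.73, rho = 0.71, and r = 0.69 without the 2 farthest libraries). Its r was 0.67 with the hepatocyte sum, which is mostly Glul (rho 0.73, and 0.63 without the 2 farthest), and 0.62 with the B and plasma cell sum (rho 0.62, and 0.55). Glul had a median of 203 CPM and Alb of 3.95 CPM, so the hepatocyte sum is not a measure of hepatocytes alone. R63289, the code with the highest Nkd1, was not the highest in macrophage markers (411 to 460.1 CPM, against 322 to 684 CPM elsewhere). The part of these cells in the level of Nkd1 was not tested. Nkd1 and Axin2 were thus highest in different codes, and Axin2 in R63289 stayed at or below 22.7 CPM. Its relative Nkd2 was more abundant, with a median of 59.4 CPM against 4.23 CPM for Nkd1, and of 12.6 against 0.949 RPKM.

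Of the DNA-binding partners, Tcf7 was the main one per length. TCF7 is best known from T cells, LEF1 from lymphocytes and hair follicles, and TCF7L2 from intestinal epithelium. With Tcf7l1, a family member that mostly represses, taken into the sum, Tcf7 made up a median of 52.9% of the RPKM of the family. Tcf7l2 held 32.2%, Tcf7l1 13.4% and Lef1 1.99%. Per length, Tcf7 exceeded Tcf7l2 in 15 of 17 libraries. Its share was lowest in R63494_1, at 38.9%, where Tcf7l2 held 49.5%, and highest in R62850_2, at 59.8%. In CPM, which is not divided by length, the order was reversed: Tcf7l2 lay at 26.7 to 40.8 CPM and Tcf7 at 8.56 to 22.5 CPM. The order per length thus rests on the lengths in the table, 2625 bases for Tcf7 and 8739 for Tcf7l2. Whether these lengths match the transcripts expressed was not tested.

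**Figure D4:**
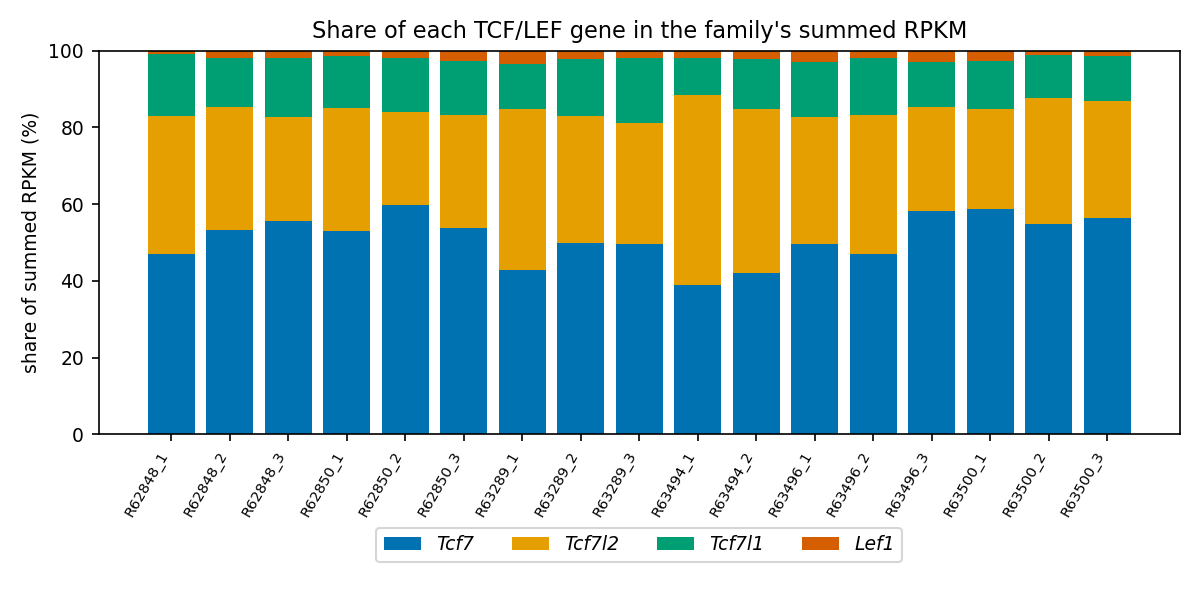
Share of Tcf7, Tcf7l2, Tcf7l1 and Lef1 in the summed RPKM of these 4 genes, in percent, for each of the 17 libraries (stacked bars to 100%). Tcf7 holds 38.9% to 59.8% and Lef1 at most 3.33%.

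Tcf7 (ENSMUSG00000000782, chromosome 11, from 52252371 to 52283014) ranged from 8.56 CPM in R63494_1 to 22.5 CPM in R62850_3, with a median of 15.2 CPM. Both R63494 libraries, at 8.56 and 10.97 CPM, lay below the other 15. A code wholly below the rest occurred in 11.1% of all genes. R62850_2 and R62850_3 were the highest, at 22.01 and 22.5 CPM, followed by R63496_3 and R63500_1, both at 19.4 CPM. Codes differed (edgeR, adjusted p = 0.0110), but the call was lost without R63494_1 (adjusted p = 0.0508), without the code R63494 (0.0782) and without R62850 (0.0612).

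Lef1 (ENSMUSG00000027985, chromosome 3, from 131110471 to 131224356) had the fewest counts of the members, 17 to 62 in a library. It ranged from 0.775 CPM in R62848_1 to 3.84 CPM in R62850_3, with a median of 1.95 CPM, and no code stood wholly apart from the rest (edgeR, adjusted p = 0.579). Tcf7l2 (ENSMUSG00000024985, chromosome 19, from 55741810 to 55933654) was steadier, between 26.7 CPM in R63496_1 and 40.8 CPM in R62850_3 around a median of 32.1 CPM (edgeR, adjusted p = 0.179).

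Markers of several other cell types moved with Tcf7 and Lef1 within codes. Of the 11 marker lists, the endothelial one (6 genes, all kept, 132 to 361 CPM summed) had the highest r with Tcf7, at 0.77 (rho 0.73, and r = 0.67 without the 2 farthest libraries). The macrophage list followed at 0.52 (rho 0.41, and 0.27 without the 2 farthest). The 10 T cell markers, all kept and all at low levels, summed to 35.5 CPM in R63500_2 up to 87.9 CPM in R62850_3, the library with the highest Tcf7 and Lef1. After subtraction of code means, the T cell sum had an r of 0.52 with Tcf7 (rho 0.42) and of 0.56 with Lef1 (rho 0.53), and without the 2 farthest libraries 0.34 and 0.44. Of 2 protein-coding genes most like Tcf7 in this measure, the first was the B cell gene Ms4a1 (r = 0.97, rho = 0.97), which stood at 14.5 CPM in R62850_3, 9.93 CPM in R62850_2 and 5.56 CPM in R63496_3, and at 0 and 0.172 CPM in the R63494 libraries. Yet the list of 6 B and plasma cell markers, in which plasma cell genes weigh most, had an r of 0.25 with Tcf7 (rho -0.03). For Lef1 the r was as high with smooth muscle (0.59, rho 0.56) and neutrophil markers (0.57, rho 0.45), and it was -0.63 with the cholangiocyte sum (rho -0.58). Without the 2 farthest libraries these were 0.53, 0.33 and -0.49. The part of these cells in the levels of Tcf7 and Lef1 was not tested. Tcf7l2 had its highest r with the acinar sum (0.57, rho 0.61), followed by the cholangiocyte sum (0.44, rho 0.55), and an r of 0.14 with the T cell sum. Without the 2 farthest libraries these were 0.49, 0.55 and 0.23, so the acinar sum no longer came first. These relations are a selection from the 110 computed between members and marker lists, given as descriptions over libraries that share a code.

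Among the members themselves, within-code relations were few. Of 45 pairs, 21 had an r above 0 after code means were subtracted, and the median r was -0.0045. The highest was between Tcf7 and Lef1 (r = 0.64, rho = 0.55, and r = 0.53 without the 2 farthest libraries). Next came Axin2 and Rnf43 (r = 0.59, rho = 0.57, and r = 0.78 without the 2 farthest). The T cell sum moved against both, with an r of -0.64 for Rnf43 (rho -0.71, and -0.67 without the 2 farthest) and of -0.47 for Axin2 (rho -0.49, and -0.47), and its part in their relation was not tested. The lowest was between Apc and Nkd1 (r = -0.57, rho = -0.54, and r = -0.49 without the 2 farthest). With the long-transcript level Apc had an r of 0.93 and Nkd1 of -0.49, and the part of that level in their relation was not tested. Ctnnb1 and Apc had an r of 0.50 (rho 0.31), which was -0.01 without the 2 libraries farthest in Ctnnb1.

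**Figure D5:**
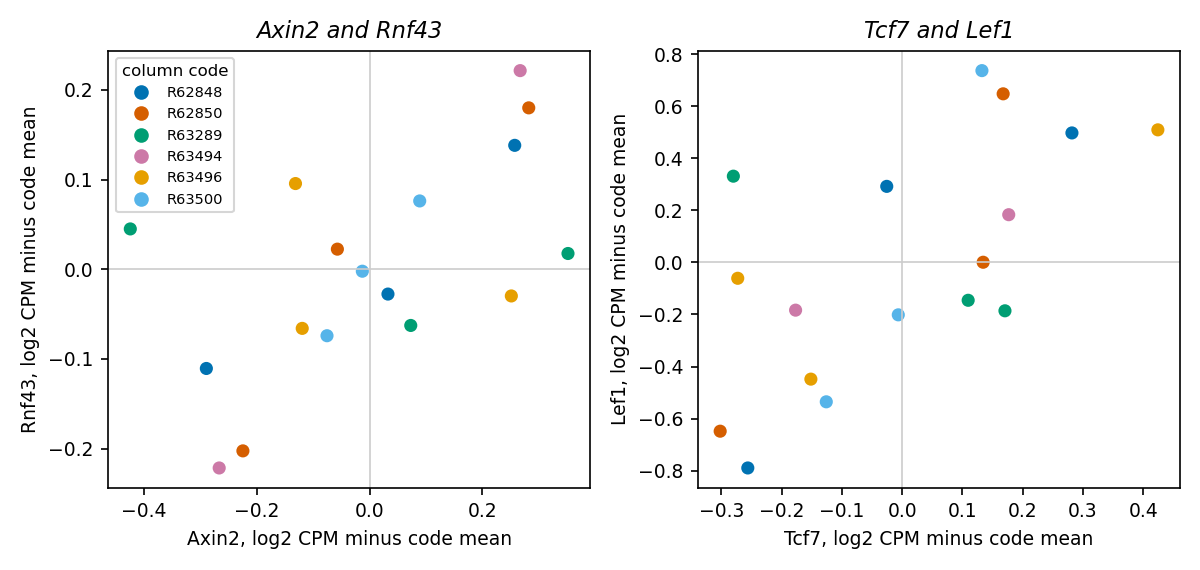
Departures of log2 CPM from the code mean for Axin2 against Rnf43 (left) and Tcf7 against Lef1 (right), over 17 libraries coloured by code. The points run upwards from left to right in both panels, with an r of 0.59 for Axin2 and Rnf43 and of 0.64 for Tcf7 and Lef1.

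Whether any gene followed Axin2 from library to library was tested in a model with the code as a term, so that differences between codes did not count. By edgeR's quasi-likelihood, 0 of 19411 genes passed (0%), with 589 at an unadjusted p under 0.05. DESeq2 called 5 genes and limma-trend called 0. None of the 9 other members passed, and Rnf43 was the only one with an unadjusted p under 0.05 (slope 0.31 ± 0.14 SE, in log2 CPM per log2 CPM of Axin2; unadjusted p = 0.0385, edgeR adjusted p = 0.9999). Slopes of the remaining members ran from -0.30 for Nkd1 (SE 0.37) to 0.33 for Tcf7 (SE 0.27). Ctnnb1 had a slope of 0.01 (SE 0.11).

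The smallest p in that model belonged to Masp1, a serine protease of the complement lectin pathway (slope 1.16 ± 0.19 SE, edgeR adjusted p = 0.102), at 8.92 to 79.3 CPM. The other 9 protein-coding genes of smallest p with a positive slope were Col5a1, Gpc1, Sfrp4, Col12a1, Col11a1, Ssc4d, Dnajb7, Pkp1 and Tff2. They include fibrillar and fibril-associated collagens and Sfrp4, a secreted WNT antagonist (slope 1.91 ± 0.44 SE). With a negative slope they were Fmo2, Dnm3, Sgpp1, Pdlim3, Prelid2, Cd200r3, Fmo1, Gja5, Stmn2 and Cpm. None of these 19 had an edgeR adjusted p below 0.821. The fibroblast and matrix sum had a within-code r of 0.50 with Axin2 (rho 0.60), and of 0.72 without the 2 farthest libraries, and the part of stroma in the Axin2 level was not tested.

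The rest of the pathway was described by lists. Of 11 kinases and scaffolds of the destruction complex, all were kept and 3 were called between codes, and this and the counts that follow stand beside 42.2% of all genes. Ppp2r1a, a scaffold subunit of the phosphatase PP2A, was the most abundant per length (55.4 RPKM), and Apc2, the neural relative of Apc, varied most (0.861 to 2.67 CPM, edgeR adjusted p = 0.349). Of the kinases that phosphorylate beta-catenin, Csnk1a1 lay between 304 and 361 CPM (edgeR adjusted p = 0.389) and Gsk3b between 99.9 and 158 CPM, with a difference between codes (edgeR adjusted p = 0.00833). Of 7 turnover genes, 5 were called. Fbxw11, a ubiquitin ligase subunit that recognises phosphorylated beta-catenin, led per length (23.4 RPKM). Tnks, which encodes the tankyrase that marks AXIN for degradation, varied most, from 12.9 CPM in R62850_2 to 67.3 CPM in R62848_2. It was also, with Raph1, among the 2 genes most like Apc within codes (r = 0.97 for each), and its r with the long-transcript level was 0.89.

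Of 14 nuclear co-factors 7 were called between codes. Tle5, a short relative of the Groucho corepressors listed in the table under its older symbol, had the highest median (285 RPKM), and Pygo1, a co-activator, varied most (1.62 to 5.84 CPM, edgeR adjusted p = 0.516). Of 17 receptors 16 were kept and 9 called. Fzd1 led per length with 23.0 RPKM and ranged from 51.4 CPM in R63494_2 to 129 CPM in R62848_2. Lgr6 varied most, from 0 to 2.07 CPM, and the stem cell receptor gene Lgr5 ranged from 0 to 2.68 CPM with a median of 0.279 CPM. Of 20 ligands 13 were kept and 10 called. Wnt7b was the most abundant per length (31.2 RPKM), at 99.4 to 177 CPM and highest in R63500 (166 to 177 CPM), and Wnt2 varied most (0.0557 to 2.95 CPM, edgeR adjusted p = 0.250).

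Of 20 other targets and regulators 19 were kept and 15 were called between codes, against 42.2% of all genes. Their median SD of log2 CPM was 0.38, against 0.34 over all genes. Cd44, a surface receptor for hyaluronan, was the most abundant (167 RPKM), between 838 CPM in R62850_2 and 1319 CPM in R63496_1. Notum, which encodes a secreted enzyme that inactivates WNT ligands, varied most, from 1.32 CPM in R63494_1 to 10.1 CPM in R62850_2. These 2 libraries are also the lowest and the highest for Axin2. Besides Notum, Sp5, Ascl2, Tnfrsf19 and Dkk2 were highest in R62850_2, which makes 5 of 19, where 6.38% of all genes had their highest level. Likewise Nkd2, Ephb3, Wif1, Dkk3, Tcf7l1 and Bambi joined Notum in being lowest in R63494_1, 7 of 19 against 9.56% of all genes. These counts rest on 2 libraries. In edgeR's test of the slope on Axin2 within codes, 0 of the 19 had an unadjusted p under 0.05 (Notum slope 0.15, unadjusted p = 0.745). R63494_1 was also the library with the lowest fibroblast and matrix sum (2709 CPM) and the lowest endothelial sum (132 CPM). The part of stroma in the levels of these genes and of Axin2 was not tested. Cd44 and Myc did not share the order of Axin2: Cd44 was low in R62850 (838 to 957 CPM), and Myc was highest in R63500 (26.8 to 47.7 CPM). The genes named for these libraries, and Nkd2, Csnk1a1, Gsk3b, Lgr5 and Myc, were chosen after their values had been seen, and the lists overlap in Tcf7l1.

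Other genes most like the members within codes, by r over the 17 libraries, were Vamp1 and Lig3 for Ctnnb1 (r = 0.90 and 0.88), Dchs1 and Amigo1 for Axin1 (0.90 and 0.89) and Masp1 and Sh3bp4 for Axin2 (0.88 and 0.86). For Rnf43 they were Tff1 and Senp3 (0.87 and 0.85), and for Znrf3 Lrrc31 and Cep250 (0.91 and 0.90). For Nkd1 they were Tpsb2 and Casp14 (0.93 and 0.88), for Tcf7 Sbk1 after Ms4a1 (0.93), for Lef1 Gm10384 and Lypla1 (0.92 and 0.88), and for Tcf7l2 Slc52a2 and Kcnd3 (0.86 and 0.85). No member was among the 2 genes most like another member. These values are the highest among all protein-coding genes kept, and carry no test.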

How the data were processed

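Mouse bile duct RNA gave 17 sequenced samples. The deposited table holds whole-number read counts per gene, not normalized. The build mm10 and the tools featureCounts, STAR 2.6.1c and edgeR 3.40.2 are named, per the submitters' processing notes, without the role of each. No source used here gives the annotation release or strand setting, and reads of overlapping genes cannot be told apart: 6 members overlap another gene, of which Ulk4, beside Ctnnb1, reached 96.2 CPM and no other exceeded 2.45 CPM. Counts and the deposited gene length gave RPKM. The table's 17 other per-sample columns, which match no sample title, were not used here.

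Columns match no sample title, so libraries are named by column. Genes were kept with filterByExpr on the code design (19412 genes), scaled with TMM, and tested in edgeR 4.0.16 (R 4.3.3) by quasi-likelihood with a robust fit and Benjamini-Hochberg adjustment, adjusted p below 0.05. One test was of the code term, the other of the slope on Axin2 log2 CPM (prior count 2) with the code as a term. Both were also run on simulated data, in which the planted slopes were larger than those of the members, so small slopes were not covered. Correlations used log2 CPM minus code means and carry no p. For pairs of members, the 2 farthest libraries were those farthest from the median of the first-named gene. For marker sums they were those farthest in the sum, and for the long-transcript level those farthest in that level. Extremes of the other gene, or of the member set against a sum or level, stayed in. The long-transcript level is the median departure, from each gene's mean log2 CPM, over protein-coding genes of at least 10000 bases and a mean log2 CPM above 3, without the members. Alternatives were DESeq2 1.42.0 and limma 3.58.1, scaling, filters, leaving out libraries and codes, and added terms.

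Named are all members, the most abundant and most variable gene of each pathway list, the 10 genes of smallest p in each direction of the Axin2 test and the 2 genes most like each member. Of 164 list genes, 161 were matched by name and 3 by identifier or older symbol. Members and lists were chosen with earlier results of these data known. The summed marker lists not named above ran over 70.9 to 158 CPM (smooth muscle), 132 to 361 (endothelial), 322 to 684 (macrophage), 242 to 1497 (neutrophil), 177 to 268 (hepatocyte, mostly Glul), 249 to 1981 (B and plasma cell) and 35.5 to 154 (proliferation). Promoters are from RefSeq. No 2 libraries were identical.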

Additional observations from a re-analysis of the deposited data

How the results depend on the processing

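The number of genes that differed between codes was 8194 and stayed within 1.5 times of that under every alternative run (5594 with the long-transcript level as a covariate to 9529 with DESeq2), and Axin2 was called in each. Leaving out 1 library in turn gave 7188 to 8531 genes. The median RPKM of the 10 members moved by less than 1 SD with other scaling. The deposited FPKM were not tried as another unit. The number of genes that followed Axin2 within codes was 0. It was 1 without a filter on low counts, 5 with DESeq2, 61 with no code term and 2 with the running number as a term. It was 1 without the code R63289, 1 without R63496 and 1 without R63500. Leaving out 1 library gave 0 to 4 genes, with 4 without R62850_1 and 4 without R62850_2, and 1 each without R63496_3, R63500_1 and R63500_2. No member passed in any of these fits. Slopes that missed the threshold changed sign. With no code term they were -0.068 for Ctnnb1, 0.27 for Nkd1 and 0.32 for Lef1. With the running number as a term they were 0.18 for Apc, 0.16 for Nkd1 and 0.11 for Lef1. For Ctnnb1 the slope was -0.019 without the code R62848 and -0.011 without R63496, and for Lef1 it was 0.035 without R63289. Over the fits without 1 library they ran from -0.019 to 0.048 for Ctnnb1 and from -0.69 to 0.041 for Lef1. The cause was not tested. Where 1 library of R63494 was left out, the other was taken to vary like the rest. No paired analysis was possible because all samples belong to 1 group. Lef1, with 17 to 62 counts in a library, had the largest counting error of the members.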
